A study of Danio rerio with 8 samples.

Results

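Nuclear genes of oxidative phosphorylation were followed in trunk tissue of zebrafish embryos mutant for foxc1a, a forkhead transcription factor gene, and of their siblings. They were chosen by name, as transcripts whose symbol begins with nduf, sdh, uqcr or atp5, or with cox4 to cox8, and each symbol was counted once. This gave 79 genes of the 13765 symbols in the table. By name, 33 encode parts of complex I, 5 of complex II, 8 of complex III, 14 of complex IV and 15 of complex V, and 4 are assembly factors (ndufaf1, ndufaf2, ndufaf5 and sdhaf2). Expression is given as RPKM, a read number scaled by transcript length and library size. A test needed an average of 1 RPKM or more over the libraries, which 76 genes reached. The 3 that did not were cox6a2, ndufs8b and sdhda.

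The respiratory chain sits in the inner mitochondrial membrane. Complex I (NADH dehydrogenase) and complex II (succinate dehydrogenase) pass electrons to ubiquinone, complex III (the cytochrome bc1 complex) passes them on to cytochrome c, and complex IV (cytochrome c oxidase) gives them to oxygen. Complexes I, III and IV pump protons out of the matrix, and complex V (ATP synthase) lets them back in to make ATP. Most subunits are encoded in the nucleus, and muscle fibres and heart are among the tissues richest in them. Transcripts of the mitochondrial genome are not among the genes described here.

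Embryos were 38 to 40 hours old, counted from fertilisation, and had been raised at 28 °C. Those called MUT had the genotype foxc1a p162/p162, and those called SIB were siblings, p162 heterozygotes in the labels but wild type in the design text. Anterior pieces (AS) held somitic segments 1 to 6, and posterior pieces (PS) held segments 7 to about 12, without head or yolk. Each of the 4 groups, MUT_AS, MUT_PS, SIB_AS and SIB_PS, had 2 libraries, replicates 1 and 3. The labels do not say how many embryos made a library or whether replicates came from separate clutches, so p-values measure only the spread between these libraries.

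The table holds log2(RPKM + 1) values and no counts, so depth is unknown. The library MUT_AS replicate 3 stood apart, with 17.5% of transcripts at 0 against 4.59% to 8.01% in the other 7. Its lowest values were also coarser, with the 1st percentile of non-zero values at 0.316 RPKM against 0.00961 to 0.0506 RPKM. The SD between replicates over all tested transcripts, on the log2 scale, was 0.356 in MUT_AS and between 0.173 and 0.194 in the other groups. For the 76 genes it was 0.3 and between 0.11 and 0.136. The value for the 76 genes includes the mean shift between replicates and that for all transcripts does not, so they are not directly comparable. The transcript of foxc1a itself stood at 19.3 and 16.3 RPKM in MUT_AS, 18.1 and 16.3 RPKM in SIB_AS, 9.03 and 7.74 RPKM in MUT_PS and 7.75 and 7.32 RPKM in SIB_PS, so its level does not check the genotype labels. Markers of fast muscle held 4.79% to 21.5% of all RPKM. Heart genes differed between replicates: without tnni1al, which led the list and was called higher in PS than in AS, the other 10 summed to 64.4, 44.3 and 34.5 RPKM in replicate 1 of MUT_AS, SIB_AS and MUT_PS and to 4.65 to 7.84 RPKM in the other 5 libraries.

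The genes were abundant as a group. In RPKM, which is per length and so can be compared between genes, their mean over the 8 libraries ran from 0.0699 for ndufs8b to 584 for cox6b2, with a median of 105. Their sum made up 1.96% and 2.01% of all RPKM in SIB_AS, 2.14% and 2.04% in MUT_AS, 2.70% and 2.60% in SIB_PS, and 2.65% and 2.62% in MUT_PS. All 4 PS libraries were above all 4 AS libraries. The complexes kept the same order of share in every library. Of the summed RPKM of the 79 genes, complex V held 34.4% to 37.0% in any library, complex I 27.7% to 29.4%, complex IV 20.9% to 23.5%, complex III 10.2% to 11.2%, complex II 1.97% to 2.59% and the assembly factors 0.38% to 0.71%. The share of complex II was 1.97% to 2.21% in AS and 2.4% to 2.59% in PS. That of the assembly factors was 0.55% to 0.71% in AS and 0.38% to 0.46% in PS. These shares were not tested.

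Levels within a complex spanned wide ranges. In complex I the highest means were those of ndufa4l (292 RPKM) and ndufb8, both small accessory subunits by name, and ndufs8b lay lowest, at 0 to 0.157 RPKM. NDUFA4 of mammals is now counted as a subunit of cytochrome c oxidase, so ndufa4 and ndufa4l stand under complex I here by name only. In complex II, sdhc, a membrane anchor, was highest (116 RPKM) and sdhda was lowest, at 0 to 0.222 RPKM, while its paralog sdhdb, the other membrane anchor, lay between 30.3 and 74.4 RPKM. In complex III, uqcr11 led (323 RPKM), and uqcrfs1, the Rieske iron-sulfur protein, was lowest (51.2 RPKM).

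In complex IV, cox6b2 and cox4i1 led, with cox4i1, the common form of subunit 4, at 401 to 621 RPKM. Its paralog cox4i2, in mammals a form of lung and of hypoxia, stood at 0.856 to 1.85 RPKM. In complex V, atp5b, the catalytic beta subunit, ranged from 431 to 676 RPKM and atp5g3b, a subunit of the proton-carrying c ring, from 369 to 770 RPKM, and atp5s was lowest, at 1.51 to 5.45 RPKM. The gene atp5s is now named dmac2l, so it stands under complex V by its older name only. Among the assembly factors, means lay between 7.09 RPKM for ndufaf2 and 21.5 RPKM for ndufaf1. The genes listed at 0 in a library were ndufs8b, sdhda, cox5b2 and cox6a2, each of them in MUT_AS replicate 3 alone.

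**Figure D1:**
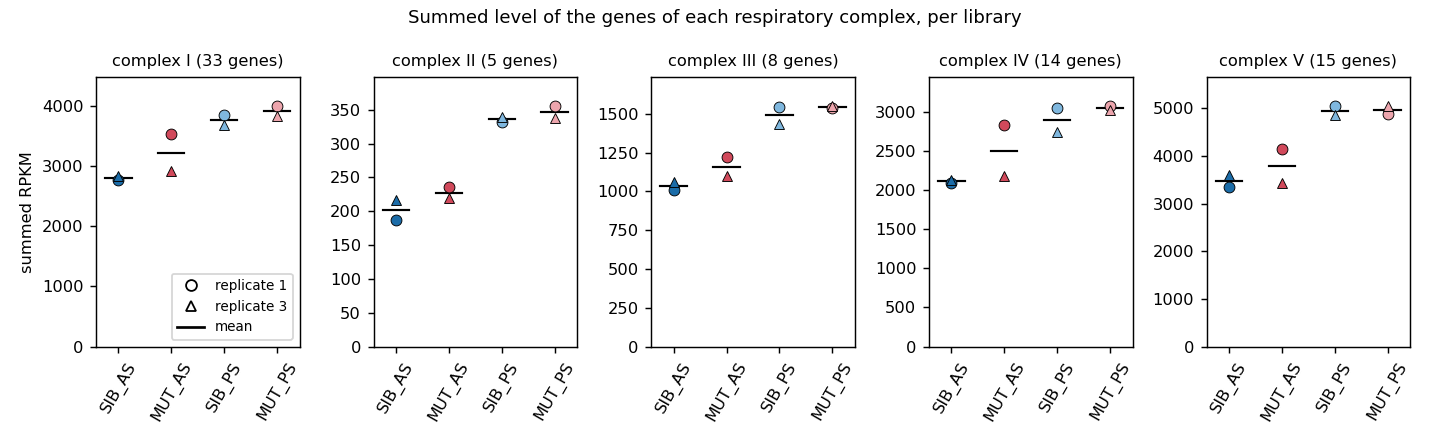
Summed RPKM (vertical axes, each from 0) of the genes of each complex in every library; circles are replicate 1, triangles replicate 3, and bars the mean of the 2 libraries of a group. All PS libraries lie above all AS libraries in complexes I, II, III and V but not in complex IV, where MUT_AS replicate 1 (2824 RPKM) exceeds SIB_PS replicate 3 (2745 RPKM). As a share of all RPKM, not drawn, complex IV was higher in every PS library than in every AS library. These 2 libraries then stood at 0.502% and 0.544%. In summed RPKM the MUT_AS pair is spread more widely than the SIB_AS pair in complexes I, III, IV and V.

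Between regions, oxidative phosphorylation genes were lower in AS than in PS. In siblings 40 of the 76 tested genes were lower in AS and 0 were higher (limma, Benjamini-Hochberg adjusted p under 0.05 over all 10889 tested transcripts; this rule defines a called gene throughout). Of all tested transcripts, 9.62% were called lower in AS and 41.6% higher (51.2% in all), so the genes ran opposite to the bulk of the table. The median log2 difference, AS minus PS, was -0.47 over the 76 genes against 0.40 over all transcripts. Both SIB_AS values lay below both SIB_PS values for 69 genes, where 20% of all transcripts did, and above them for 3, where 63.2% did.

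In mutants 25 of the 76 genes were called lower in AS and 4 higher, where 10.9% of all transcripts were called lower and 44% higher (55% in all). The median was -0.32, against 0.41 over all transcripts. Both MUT_AS values lay below both MUT_PS values for 48 genes (17.5% of all transcripts) and above them for 5 (57.2% of all transcripts). Called lower in both genotypes were 23 genes; the comparisons share no library, but they share the estimate of the spread. Over all transcripts 833 were called lower in both, 79.6% of those lower in siblings and 70.1% of those lower in mutants.

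The number of called genes changed when single libraries were left out. Such a fit leaves a lone library in its group, so only the median over the 76 genes is given at this point. With each library left out in turn the median ran from -0.505 to -0.417 in siblings and from -0.491 to -0.179 in mutants. A scaling that equalises the library medians moved the all-transcript median from 0.40 to -0.02 in siblings and from 0.41 to -0.025 in mutants. It then gave 69 of 76 genes lower in siblings and 65 in mutants with 0 higher in either, beside 21.6% and 23.3% of all transcripts lower and 18.2% and 21% higher.

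Complex II and complex III were called throughout in siblings. All 4 tested complex II genes were lower in SIB_AS, as were all 8 of complex III, 17 of 32 of complex I, 7 of 15 of complex V, 4 of 13 of complex IV and 0 of 4 assembly factors. In mutants the counts lower in AS were 3, 6, 7, 5, 4 and 0, in the same order. The ratio of summed RPKM, PS over AS, was 1.66 in siblings and 1.52 in mutants for complex II, and 1.44 and 1.33 for complex III. It was 1.42 and 1.31 for complex V, 1.37 and 1.22 for complex IV, and 1.34 and 1.22 for complex I. The assembly factors stood at 1.07 and 0.803. Differences between complexes were not tested.

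**Figure D2:**
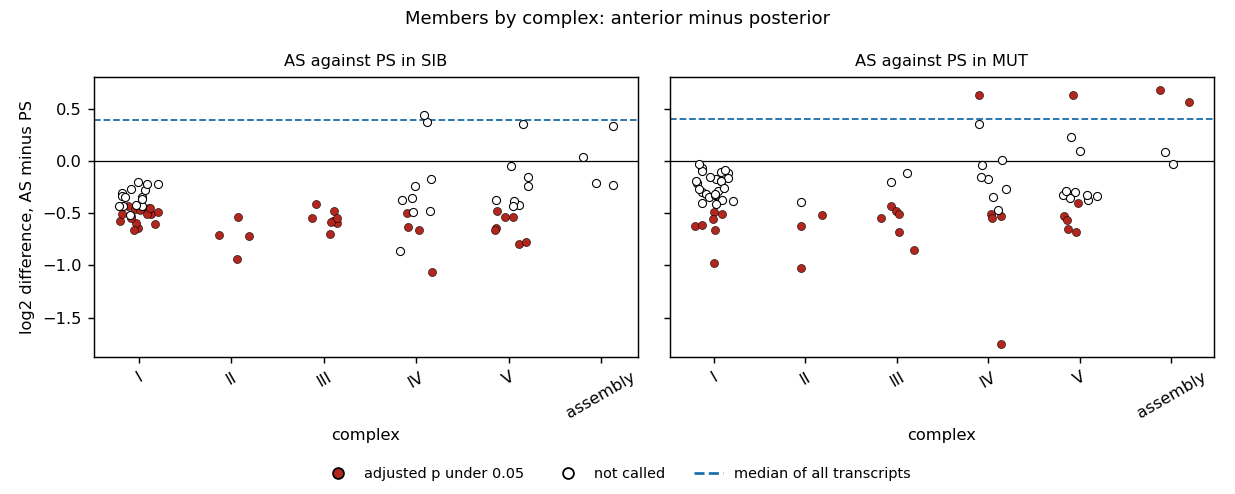
Log2 difference of each tested gene, AS minus PS (vertical axis, log2(RPKM + 1) scale), by complex, in siblings (left) and mutants (right); filled points are called, open points are not, and the dashed line is the median of all tested transcripts. In siblings all genes of complexes I, II and III lie below 0, and the median of all transcripts (0.40) lies above 0.

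In complex II, sdhdb, a membrane anchor, was at 36.0 and 37.7 RPKM in SIB_AS and at 74.4 and 68.4 RPKM in SIB_PS. In mutants it was at 30.3 and 39.0 RPKM in AS and at 70.5 and 71.6 RPKM in PS. All 4 AS values thus lay below all 4 PS values, and the log2 difference was -0.93 in siblings (SE 0.163, limma adjusted p = 0.00145) and -1.03 in mutants (SE 0.163, adjusted p = 0.000696). The other anchor, sdhc, stood at 76.1 and 90.2 RPKM in SIB_AS against 140.3 and 132 RPKM in SIB_PS, and the iron-sulfur subunit sdhb at 40.3 and 47.7 against 65.9 and 79.7 RPKM. Both were called in both genotypes, sdhc at -0.71 and -0.51 and sdhb at -0.71 and -0.63. The flavoprotein sdha, which holds the active site for succinate, was called in siblings (-0.54, limma adjusted p = 0.0267) and missed the threshold in mutants (-0.39, adjusted p = 0.0798).

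In complex III, uqcrfs1 was at 37.9 and 44.2 RPKM in SIB_AS and 72.9 and 61.7 RPKM in SIB_PS, and at 34.6 and 33.7 RPKM in MUT_AS and 61.0 and 63.7 RPKM in MUT_PS. Here too no AS value reached a PS value, and the log2 difference was -0.70 in siblings (SE 0.158, limma adjusted p = 0.00509) and -0.85 in mutants (SE 0.158, adjusted p = 0.00155). The hinge protein gene uqcrh was at 166 and 155 RPKM in SIB_AS and 263 and 220.0 RPKM in SIB_PS, with 153 and 161 RPKM in MUT_AS and 258 and 245 RPKM in MUT_PS. Its differences of -0.59 and -0.68 were called in both genotypes. The core subunit genes uqcrc1 (-0.57 and -0.47), uqcrc2a (-0.54 and -0.54) and uqcrc2b (-0.60 and -0.50) were also called in both, while uqcrb and uqcrq were called in siblings at -0.48 and -0.55 and stood at -0.20 and -0.12 in mutants.

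In complex I, ndufv1, the subunit that binds NADH, had 71.7 and 83.0 RPKM in SIB_AS and 116 and 129 RPKM in SIB_PS, and 82.7 and 75.4 RPKM in MUT_AS and 121.4 and 121.0 RPKM in MUT_PS. The AS values again lay below the PS values in both genotypes, with log2 differences of -0.66 (SE 0.152, limma adjusted p = 0.00577) and -0.61 (SE 0.152, adjusted p = 0.00709). The iron-sulfur subunit genes ndufs1 (-0.55 and -0.49) and ndufs7 (-0.57 and -0.62) and the core subunit gene ndufs3 (-0.60 and -0.56) were called in both genotypes.

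Among the accessory subunits of complex I, ndufb7 was at 94.8 and 96.7 RPKM in SIB_AS against 129.6 and 148 RPKM in SIB_PS, and at 94.6 and 102 RPKM in MUT_AS against 151 and 159.6 RPKM in MUT_PS. It was called in both (-0.53 and -0.66), as was ndufa9 (-0.59 and -0.51). Of the complex I genes called in siblings, 10 were not called in mutants, and this difference between genotypes did not pass its own test for any gene (given with the genotype comparisons). The gene ndufa4 was at 40.1 and 52.9 RPKM in SIB_AS, 69.2 and 75.7 RPKM in SIB_PS, 29.2 and 51.0 RPKM in MUT_AS and 78.5 and 75.2 RPKM in MUT_PS. Its difference was -0.64 in siblings (limma adjusted p = 0.0489) and -0.97 in mutants (adjusted p = 0.0071), and its 2 MUT_AS libraries were far apart.

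**Figure D3:**
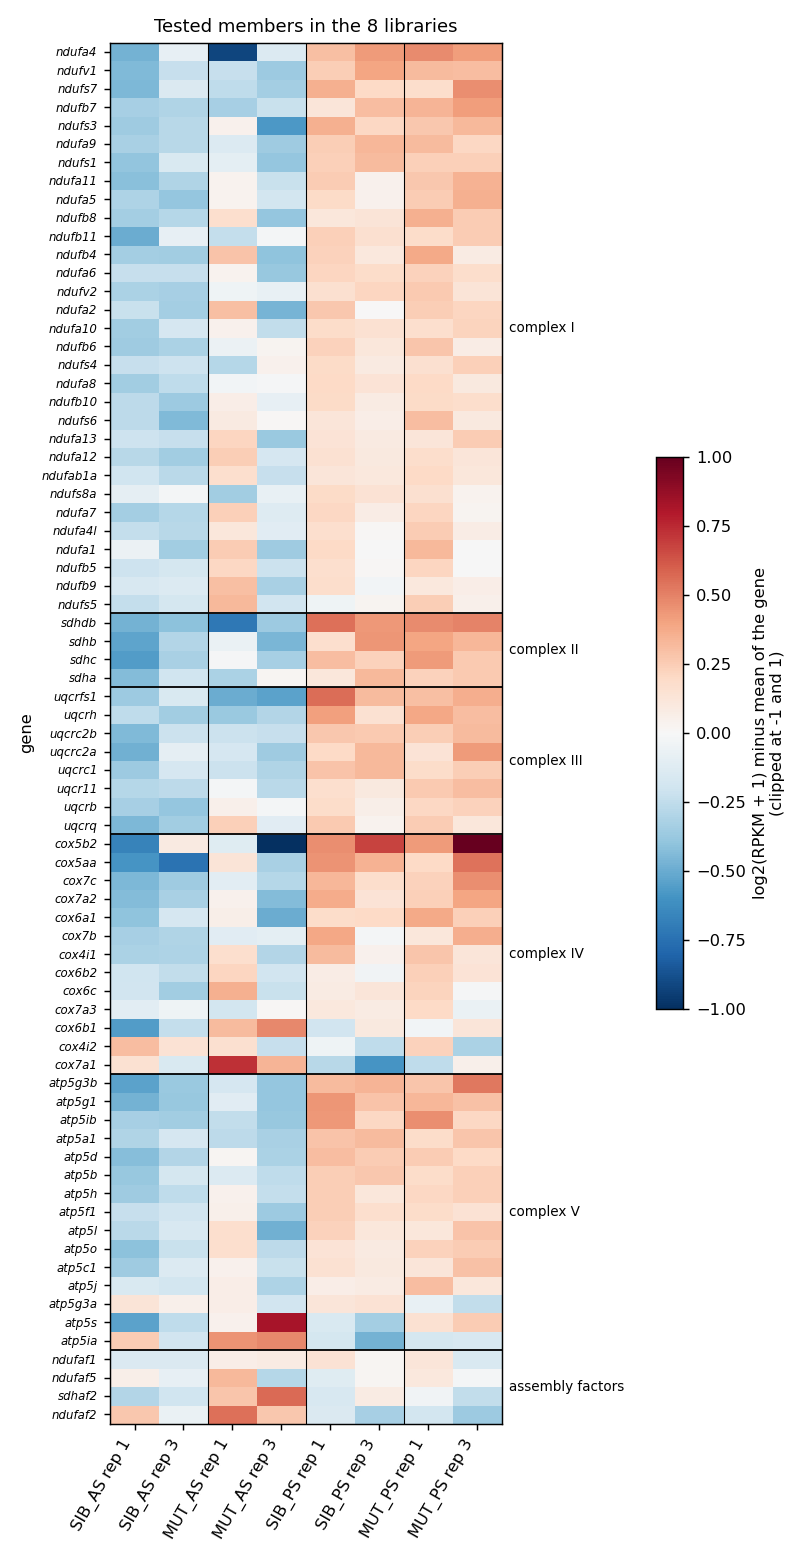
Log2(RPKM + 1) of the tested genes, 1 of them not shown, in each of the 8 libraries, minus the mean of the gene over the libraries (colour, clipped at -1 and 1), ordered by complex and then by the AS minus PS difference. Most genes are blue in the 4 AS columns and red in the 4 PS columns; MUT_AS replicate 1 is paler than the SIB_AS columns, and ndufaf2, sdhaf2, cox7a1 and atp5ia are redder in the MUT_AS than in the MUT_PS columns.

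In complex V, the catalytic genes atp5a1 and atp5b were called lower in AS in both genotypes, atp5a1 at -0.54 and -0.52 and atp5b at -0.54 and -0.41. For atp5b these rest on 431 and 495 RPKM in SIB_AS, 666 and 676 in SIB_PS, 509 and 471 in MUT_AS and 635.7 and 661.5 in MUT_PS. For the c ring gene atp5g1 the values were 282 and 302 RPKM in SIB_AS, 534 and 479 in SIB_PS, 363 and 299.5 in MUT_AS and 494 and 479.9 in MUT_PS. For atp5g1 all AS values lay below all PS values, with log2 differences of -0.79 in siblings (SE 0.157, limma adjusted p = 0.00265) and -0.56 in mutants (adjusted p = 0.0124). The other c ring gene of like level, atp5g3b, was at -0.78 and -0.68, called in both. The genes atp5o, encoding the stalk subunit that confers oligomycin sensitivity, and atp5c1, encoding the gamma subunit of the rotor, missed the threshold in both genotypes (-0.43 and -0.37 in siblings, -0.29 and -0.30 in mutants).

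In complex IV, cox5aa, a subunit 5A gene, had the lowest log2 difference of any of the genes in siblings. It was at 37.6 and 33.9 RPKM in SIB_AS and 78.3 and 73.2 RPKM in SIB_PS, a difference of -1.06 (SE 0.193, limma adjusted p = 0.00169). In mutants it was at 62.5 and 45.5 RPKM in AS and 65.8 and 83.8 RPKM in PS, with a difference of -0.47 (adjusted p = 0.0614). The groups did not overlap in either genotype, but MUT_AS replicate 1 came close to MUT_PS. The interaction for cox5aa, 0.59 (SE 0.273), had an unadjusted p of 0.0546 in limma and an adjusted p of 0.999. The genes cox7c (-0.66 and -0.54) and cox7a2 (-0.63 and -0.51) were called in both genotypes.

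The low-level gene cox5b2 stood at 1.38 and 3.03 RPKM in SIB_AS, 4.23 and 5.04 in SIB_PS, 2.49 and 0 in MUT_AS and 4.09 and 6.79 in MUT_PS. Its difference in mutants, -1.75 (SE 0.531, limma adjusted p = 0.0227), includes the library listed at 0, MUT_AS replicate 3. The 2 leading genes of complex IV, cox6b2 and cox4i1, were called in neither genotype; cox4i1 was at -0.49 in siblings (adjusted p = 0.0502) and -0.26 in mutants.

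The 4 genes called higher in AS, all in mutants, were ndufaf2, cox7a1, atp5ia and sdhaf2. The factor ndufaf2, which helps to assemble complex I, stood at 10.6 and 8.53 RPKM in MUT_AS and 5.97 and 5.14 in MUT_PS, a log2 difference of 0.68 (SE 0.186, limma adjusted p = 0.0108). The factor sdhaf2, which attaches the flavin to the sdha protein, stood at 23.3 and 28.6 RPKM in MUT_AS and 18.5 and 15.9 in MUT_PS, a difference of 0.57 (SE 0.172, adjusted p = 0.0183). With library medians equalised the 4 differences stayed positive, between 0.14 and 0.25, and none was called. In siblings the differences were 0.34 for ndufaf2, 0.44 for cox7a1, 0.35 for atp5ia and -0.21 for sdhaf2, none of them called.

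Paralogs that by name encode forms of the same subunit were compared as the log2 ratio of their RPKM within each library. No pseudocount was used, and the ratio does not depend on the scaling between libraries. The genes below the test limit, cox6a2, ndufs8b and sdhda, were in none of the pairs. Of 9 pairs, 3 had ratios that differed without overlap between the 4 AS and the 4 PS libraries, each with p = 0.02857 in a two-sided exact permutation test. The test exchanged libraries between regions without regard to genotype or replicate number. It makes no allowance for an effect shared by same-numbered libraries. The 4 libraries of a region, also in the SDs below, pool mutants and siblings. The p of 0.02857 is the smallest this test allows, and adjusted over the 9 pairs it is 0.0857, above 0.05. The pairs and the comparison were chosen after the values were seen.

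Of the 3, atp5ia and atp5ib encode forms of subunit e of the ATP synthase membrane part. The gene atp5ia stood at 90.4 and 66.1 RPKM in SIB_AS, 103 and 106 in MUT_AS, 66.9 and 54.3 in SIB_PS and 66.7 and 67.7 in MUT_PS. Over the same libraries atp5ib stood at 178 and 176, 189 and 173, 303.5 and 259.8, and 310.5 and 258.8 RPKM. The log2 ratio of atp5ia to atp5ib was therefore -0.99 ± 0.30 in AS and -2.15 ± 0.15 in PS (SD, n = 4), a shift of 1.16 towards atp5ia.

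The ratio of cox7a1 to cox7a2, forms of subunit 7A, was -5.02 ± 0.32 in AS and -6.26 ± 0.24 in PS (SD, n = 4), a shift of 1.23. In mammals COX7A1 is the form of heart and skeletal muscle. Here cox7a1 was low throughout, at 2.64 to 8.10 RPKM. The untested gene cox6a2 lay the other way, at 0 to 0.316 RPKM in AS and 0.542 to 1.35 RPKM in PS. Its paralog cox6a1 stood at 206 to 303 RPKM in AS and 331 to 377 RPKM in PS. The ratio of atp5g3a to atp5g3b, copies of a c ring gene, shifted by 0.758, from -1.80 ± 0.28 in PS to -1.04 ± 0.21 in AS. Of the pair, atp5g3b was called lower in AS in both genotypes and atp5g3a in neither, with atp5g3a at 218 and 207 RPKM in SIB_AS and 218 and 221 in SIB_PS.

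In the remaining 6 pairs the ratios of AS and PS libraries overlapped. The ratio of cox4i2 to cox4i1 shifted by 0.718 (exact permutation p = 0.0571, adjusted 0.103); on the log2(RPKM + 1) scale, which weighs heavily on cox4i2 at 0.856 to 1.85 RPKM, the shift was 0.565 without overlap (exact permutation p = 0.02857, adjusted 0.0643). The ratio of ndufa4 to ndufa4l differed by -0.567 between AS and PS (exact permutation p = 0.0571, adjusted 0.103), and that of cox7a3 to cox7a2 by 0.411 (exact permutation p = 0.0857, adjusted 0.129). The gene cox7a3 is now named cox7a2l, so it is paired with cox7a2 by its older name only. For cox6b1 over cox6b2 the shift was 0.207, for atp5g1 over atp5g3b 0.0541 and for uqcrc2a over uqcrc2b 0.00406, with exact permutation p-values of 0.543, 0.657 and 0.971. Near-identical copies can share reads, and how the authors' counting divided such reads between copies was not checked here.

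**Figure D4:**
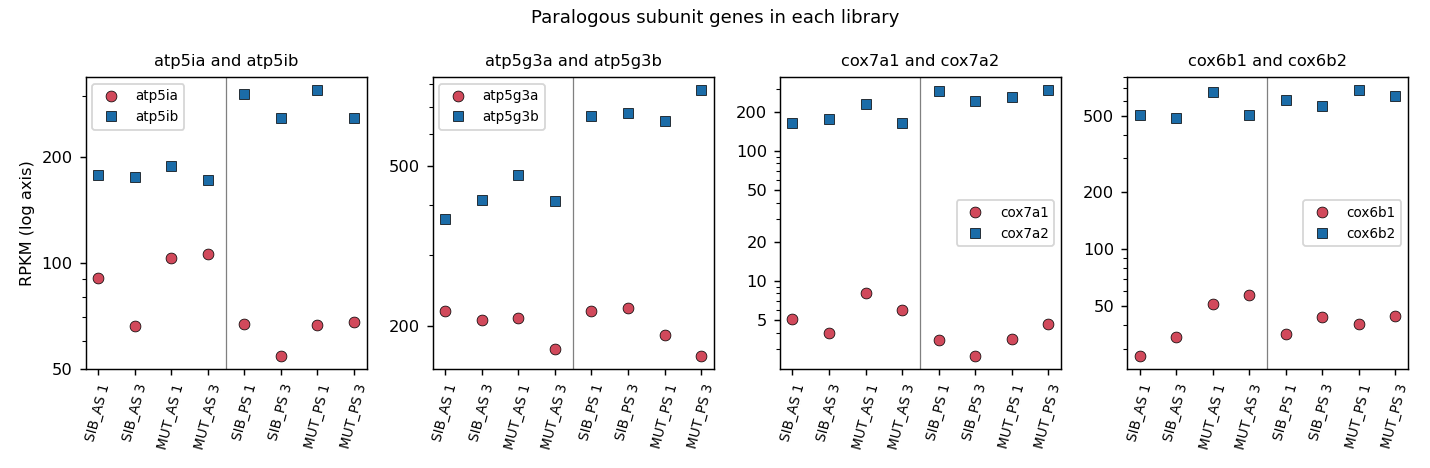
RPKM (log axis) of both genes of 4 paralogous pairs in each library; the grey line parts AS (left) from PS (right). The genes atp5ib, atp5g3b and cox7a2 are higher in every PS library than in every AS library, while their partners atp5ia, atp5g3a and cox7a1 are not; for cox6b1 and cox6b2 the ratios overlap.

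Other mitochondrial genes, taken from lists chosen with earlier results of these data known, were counted in the same fit. Of 17 tested genes of the citrate cycle and pyruvate dehydrogenase, which supply the NADH and succinate that complexes I and II use, 13 were called lower in AS in siblings and 13 in mutants, with 0 higher. Beside this list and those below, 9.62% of all transcripts were called lower in AS in siblings and 10.9% in mutants. Called higher were 41.6% and 44%. For suclg1, a subunit of succinyl-CoA ligase, 119 and 130.1 RPKM in SIB_AS stood against 247 and 250.4 RPKM in SIB_PS, a log2 difference of -0.99, and in mutants it was -0.94. Its partner sucla2 was at -0.88 and -0.84, and mdh2, the mitochondrial malate dehydrogenase, at -0.85 and -0.67, all called.

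Of 6 electron carrier genes, 5 were called lower in AS in siblings and 2 in mutants. Cytochrome c itself, cycsb, was at 333 and 327 RPKM in SIB_AS and 673 and 683 RPKM in SIB_PS, a difference of -1.04, and at -0.63 in mutants. Of 11 tested assembly factors of cytochrome c oxidase, 1 was called lower in each genotype, the copper chaperone gene cox17 (-1.31 and -1.21). This share lies near those of all transcripts called lower, 9.62% in siblings and 10.9% in mutants. Of 6 assembly or regulatory genes of complex III and ATP synthase, 2 were called lower in siblings and 1 in mutants. Among these was atpif1b (-0.88 and -1.12), an inhibitor of the ATPase activity of complex V.

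Of 7 carrier and porin genes of the mitochondrial membranes, 3 were called lower and 1 higher in AS, in each genotype. The ADP/ATP carrier slc25a4 was at -1.36 and -1.68, and vdac1, a porin of the outer membrane, at 0.95 and 1.03. Of 10 tested regulators of mitochondrial biogenesis and mitochondrial DNA, 5 were called higher and 0 lower in AS in siblings, and 6 higher and 2 lower in mutants. These shares of higher genes lie near those of all transcripts, 41.6% and 44%. The transcription factor genes nrf1 (1.31 and 1.07), gabpa (1.19 and 1.39) and esrrga (0.92 and 1.24) and tfam (0.60 and 0.85), whose protein packages mitochondrial DNA, were higher in both. Lower in AS in mutants were esrra and mterfd3. The gene esrra stood at 4.92 and 2.51 RPKM in MUT_AS and 5.92 and 6.44 in MUT_PS, and mterfd3 at 1.80 and 1.91 against 3.38 and 2.76 RPKM. With library medians equalised the regulators gave 2 higher and 3 lower in siblings and 3 higher and 2 lower in mutants, while the citrate cycle list gave 16 and 15 lower of 17.

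Most muscle markers were also lower in AS. The 29 genes of the fast muscle list held 7.84% and 10.1% of all RPKM in SIB_AS, 4.79% and 6.11% in MUT_AS, 18.1% and 21.5% in SIB_PS and 16.6% and 16.8% in MUT_PS. Of these, 27 were called lower in AS in siblings and 28 in mutants, with median log2 differences of -1.27 and -1.65, and none was listed at 0. The exception called higher in AS, in siblings, was tnni2b.2, at 55.7 and 83.4 RPKM in SIB_AS and 21.1 and 17.6 RPKM in SIB_PS. The slow muscle list held 0.261% to 0.322% in AS and 0.598% to 0.765% in PS, with 7 of 9 tested genes called lower in each genotype and 1, prox1a, called higher (1.32 in siblings and 1.41 in mutants).

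With the muscle genes taken out of the library totals, 63 of the 76 oxidative phosphorylation genes were called lower in siblings with 0 higher, and 48 lower with 1 higher in mutants. This scaling moved the whole table the same way. Of all transcripts, 13.6% were then called lower and 30.9% higher in siblings, and 14.8% and 34.7% in mutants. Without it the shares lower were 9.62% and 10.9%. In bulk tissue, fewer cells of a type and less RNA per cell cannot be told apart. Pan-neuronal genes ran the other way, at 0.145% to 0.199% of RPKM in AS and 0.0505% to 0.0639% in PS, with 12 of 14 called higher in siblings and 10 in mutants. Liver and gut genes held 0.277% to 0.445% in AS and 0.651% to 0.917% in PS, with 12 of 13 called lower in each genotype. Epidermal genes, of which 8 and 6 of 15 were called lower, held 1.55% to 2.83% in AS and 2.59% to 3.93% in PS, overlapping ranges. The part of these lists in the oxidative phosphorylation result was not tested.

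Between genotypes, none of the 76 genes was called in either region. In AS the count was 0 in limma (9 genes at an unadjusted p under 0.05, smallest adjusted p = 0.257), where 0.0459% of all transcripts were called, 0.00918% as higher and 0.0367% as lower. Over all tested transcripts 1270 of 10889 had an unadjusted p under 0.05 in limma. The log2 difference, MUT minus SIB, was positive for 66 of 76 genes and for 6760 of 10889 tested transcripts. Its median was 0.18 over the 76 genes against 0.08 over all transcripts. With library medians equalised the median over the 76 genes was 0.097, and with muscle genes left out of the totals it was 0.117. Both MUT_AS values lay above both SIB_AS values for 26 genes and below for 1, where 27% and 11.7% of all transcripts did so. The summed level was 12020 and 9912 RPKM in MUT_AS and 9455 and 9897 RPKM in SIB_AS. By this sum MUT_AS replicate 1 was high and replicate 3 lay beside the siblings. Library totals of RPKM differed too. As shares of all RPKM the genes held 2.14% and 2.04% in MUT_AS and 1.96% and 2.01% in SIB_AS, a narrower gap. For the fast muscle list the ratio of summed RPKM, MUT over SIB, was 0.647 in AS and 0.873 in PS. The part of fast muscle in these values was not tested. The erythroid list differed more between genotypes, with ratios of 2.85 in AS and 3.98 in PS, against 1.13 and 1.03 for the 79 genes. Replicates 1 and 3 of this list were far apart, at 3556 and 1044 RPKM in MUT_AS and 4980 and 1635 RPKM in MUT_PS. The siblings were at 1178.5 and 434 RPKM in SIB_AS, overlapping MUT_AS, and at 940 and 720 RPKM in SIB_PS. The median log2 differences of the erythroid list were 1.02 and 1.65, 0 of its 11 genes were called in either region, and its part in the values above was not tested.

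The shift in AS followed MUT_AS replicate 1. In MUT_AS 59 of 76 genes were higher in replicate 1 than in replicate 3, with a median difference of 0.26 on the log2 scale, against medians of -0.05 to 0.07 in the other groups. Over all tested transcripts this median was 0.114 in MUT_AS and 0.011 to 0.106 in the other groups. Most genes of the heart and erythroid lists also set the 2 MUT_AS libraries apart. In replicate 1 and replicate 3 the heart muscle genes myl7 stood at 15.4 and 0 RPKM, cmlc1 at 16.6 and 0 and tnnt2a at 10.9 and 0, and the 11 erythroid genes summed to 3556 and 1044 RPKM. Of the heart list, tnni1al (105 and 124 RPKM) and gata5 (6.23 and 6.71 RPKM) were higher in replicate 3. The SIB_AS replicates differed likewise, with myl7 at 13.0 and 0.431 RPKM and the erythroid sum at 1178.5 and 434 RPKM. There 25 of the 76 oxidative phosphorylation genes were higher in replicate 1, with a median difference of -0.05. The part of the heart and erythroid genes in the shift was not tested. Without replicate 1 the median of MUT minus SIB in AS was 0.03, and without replicate 3 it was 0.34. Leaving out replicate 1 leaves replicate 3, the library with the coarsest low values, alone in MUT_AS, so calls are not read from that fit. Its log2 differences in AS were 1.22 for atp5s, 0.88 for cox6b1 and 0.81 for sdhaf2. For cox5b2, which is at 0 in replicate 3, the difference was -1.63. These genes were picked by that same fit, so their values are a description only.

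In PS 0 genes were called (0 at an unadjusted p under 0.05 in limma, smallest adjusted p = 1), as were 0% of all transcripts. Of all 10889 tested transcripts, 291 had an unadjusted p under 0.05 in limma. The median difference was 0.04 against 0.06 over all transcripts, with 13 genes above and 5 below without overlap (23.8% and 8.93% of all transcripts). The summed level was 13905 and 13849 RPKM in MUT_PS and 13862 and 13105 RPKM in SIB_PS. Averaged over the regions, 0 genes were called (7 at an unadjusted p under 0.05, smallest adjusted p = 0.27), where 0.0827% of transcripts were, 0.0367% as higher and 0.0459% as lower. For this average 1214 of 10889 tested transcripts had an unadjusted p under 0.05 in limma. Without MUT_AS replicate 1 the averaged log2 difference was 0.84 for atp5s and 0.49 for cox6b1, genes again picked by that fit.

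The gene nearest to a call was cox6b1, a subunit 6B gene of complex IV. It stood at 51.3 and 57.7 RPKM in MUT_AS and 27.5 and 34.6 RPKM in SIB_AS, without overlap, and at 40.3 and 44.6 RPKM in MUT_PS and 35.7 and 43.9 RPKM in SIB_PS. Its log2 difference in AS was 0.80 (SE 0.178, limma adjusted p = 0.257), and that in PS was 0.09 (adjusted p = 1). Its far more abundant paralog cox6b2 was at 0.23 in AS (adjusted p = 0.602).

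Next came sdhaf2, at 0.67 in AS (SE 0.172, limma adjusted p = 0.275), with 15.4 and 16.4 RPKM in SIB_AS. The low-level gene atp5s, now named dmac2l, was at 2.76 and 5.45 RPKM in MUT_AS, 1.51 and 2.05 in SIB_AS, 3.06 and 3.35 in MUT_PS and 2.28 and 1.88 in SIB_PS. It was above the siblings without overlap in both regions, by 0.83 in AS and by 0.45 in PS, with limma adjusted p-values of 0.309 and 1. The lowest differences were those of cox5b2 (-0.73) in AS and atp5g3a (-0.30) in PS, neither called.

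**Figure D5:**
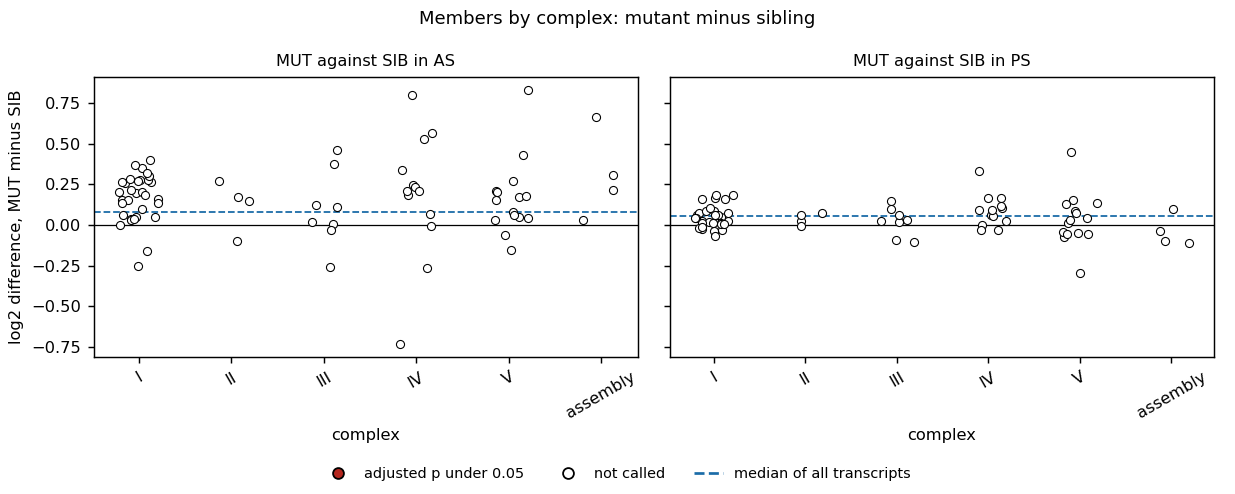
Log2 difference of each tested gene, MUT minus SIB (vertical axis, log2(RPKM + 1) scale), by complex, in AS (left) and PS (right); all points are open because no gene was called, and the dashed line is the median of all tested transcripts. In AS 66 of 76 genes lie above 0, with a wider scatter than in PS. Of all 10889 tested transcripts, not drawn, 6760 were above 0 in AS.

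The interaction of genotype and region asks whether the difference between AS and PS was itself different in mutants. It was called for 0 of 76 genes (2 at an unadjusted p under 0.05 in limma, smallest adjusted p = 0.999), as for 0% of all transcripts. The 2 were sdhaf2 (0.77, SE 0.243, unadjusted p = 0.0098) and cox6b1 (0.71, SE 0.252, unadjusted p = 0.0188). Over all tested transcripts 298 of 10889 had an unadjusted p under 0.05 for the interaction in limma. The median interaction was 0.12, and leaving out each library in turn moved it between -0.01 and 0.27. The smaller number of genes called in mutants than in siblings is thus not shown to be a difference between genotypes.

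Outside the 79 genes, 10 of the 4583 transcripts averaging 10 RPKM or more followed their mean log2 level most closely over the 8 libraries. The closest was atp1a1a.4, a sodium pump alpha subunit gene, with a Pearson r of 0.992, followed by mfsd4b (0.985), uap1 (0.981), fkbp10b (0.98) and idh3b (0.978), a subunit of isocitrate dehydrogenase of the citrate cycle. The others were zgc:153662, cdh17, myl10, mybpc3 and crls1, the last encoding cardiolipin synthase, at 0.975 to 0.978. The 8 points share the region difference and the scaling of the table, so these values are a description only.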

How the data were processed

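Polyadenylated RNA of 8 trunk libraries was sequenced. Per the design text, paired reads were aligned to Zv9/danRer7 with RUM (version not given there), which placed each read on 1 transcript. The authors deposited log2(RPKM + 1) values per RefSeq transcript, per the file headers; the table holds no counts and depth is unknown. The deposited ratio columns were not used. Of 14809 rows, 228 fill rows were dropped, none of them a gene described here; for ndufa1, cox5aa and uqcrfs1 the row with the highest mean was kept. All 79 accessions were found in a RefSeq gene table of GRCz12tu, used for names only; 59 carry the same symbol there.

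All 8 libraries entered 1 fit in limma 3.58.1 (R 4.3.3, statmod 1.5.0) of the 10889 transcripts averaging 1 RPKM or more, 1 mean per group, with trend and robust moderation and Benjamini-Hochberg adjustment; the script was tested on simulated data. Log2 differences are on the RPKM + 1 scale and understate changes of low genes. Genes named are the 25 of smallest p, each complex's highest and lowest, the paralogs and the extremes of each comparison. Members and lists were chosen with earlier results of these data known; dld, which in zebrafish is a Notch ligand gene, was removed from the citrate cycle list after values were seen. Alternatives covered the filter, pseudocount, scaling, group weights, replicate block, libraries left out, libraries in the fit and transcripts per symbol. The scaling without muscle genes and the tests of paralog pairs were added after the data were seen. The values of 1 gene are not reported here; it is counted among the genes tested.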

Additional observations from a re-analysis of the deposited data

Results flagged for a closer look

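The gene sdhda, a paralog of the membrane anchor gene sdhdb, was not tested because its mean was below 1 RPKM, and it was at 0 to 0.222 RPKM in every library. In AS the mutant values, 0.0852 and 0 RPKM, lay below the sibling values, 0.0862 and 0.189 RPKM (log2 difference -0.126). This separation thus rests on 0.0852 against 0.0862 RPKM. In PS both mutant values lay above both sibling values. Of all tested transcripts 11.7% lay below in AS and 23.8% above in PS without overlap. The difference between regions was not tested. In siblings both AS values lay above both PS values (log2 difference 0.111) and in mutants both lay below. Of all tested transcripts 63.2% lay above in siblings and 17.5% below in mutants without overlap. The difference between genotypes was not tested. The library MUT_AS replicate 3, in which sdhda is listed at 0, has the coarsest low values of the 8.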

How the results depend on the processing

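No called gene reversed: 69 differences between AS and PS were called, and over 16 alternatives they gave 1104 values, of which 873 were still called and 231 kept their direction but missed the threshold. Genes called under every alternative were 4 of 40 lower in siblings (atp5g1, atp5g3b, cox5aa and sdhdb), 6 of 25 lower in mutants (ndufa4, ndufb7, ndufv1, sdhdb, uqcrfs1 and uqcrh) and 0 of 4 higher in mutants. Several alternatives cannot change a log2 difference, so a reversal was not possible under them. They are the weight per group, the replicate block, only the groups compared, and a library left out of another group. In siblings the 40 calls became 69 under median scaling and 63 with muscle genes left out of the totals, and the median of -0.47 became -0.887 and -0.672. Under these scalings the share of all transcripts called lower in siblings also rose, from 9.62% to 21.6% and 13.6%. For mutants that share rose from 10.9% to 23.3% and 14.8%. In mutants the 29 calls became 65 and 49, and the median of -0.322 became -0.752 and -0.522. With only the groups compared in the fit, the calls fell to 13 in mutants and rose to 57 in siblings. A weight per group also gave 13 calls in mutants and 57 in siblings. Leaving out each library in turn gave 6 to 58 calls in siblings and 8 to 47 in mutants, with medians of -0.505 to -0.417 and -0.491 to -0.179. For MUT against SIB it gave 0 to 4 calls in AS, 0 in PS and 0 to 2 averaged, with medians of 0.034 to 0.339, -0.001 to 0.067 and 0.036 to 0.191, and for the interaction 0 calls and medians of -0.008 to 0.274. A left-out library leaves a lone one, assumed to vary like the other groups. The replicate block gave 47 calls in siblings, 35 in mutants and 0 in the genotype comparisons and the interaction. Differences between replicates 1 and 3 correlated at 0.522 between SIB_AS and SIB_PS and at 0.215 between MUT_AS and MUT_PS. Across genotypes they correlated at -0.0942 to 0.371. The main fit did not take the numbers as pairs, so it makes no allowance for an effect shared by same-numbered libraries. The cause of the changes between alternatives was not tested. With 2 libraries a group and no counts, changes of genes near 1 RPKM cannot be resolved, most of all in MUT_AS replicate 3.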
